A study of Mus musculus with 8 samples.

Results

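The inducible antimicrobial genes of the intestinal epithelium were examined in sorted intestinal stem cells of mice with a floxed Irf2 gene. Of 10 genes named for this purpose (Reg1, Reg3a, Reg3b, Reg3g, Nos2, Duox2, Duoxa2, Lcn2, Saa1 and Pigr), 9 were matched to array probes through the RefSeq accession that the files give for each probe. No accession mapped to Duox2 in the gene table of assembly GRCm38.p6, so Duox2 is not analysed here. All 9 matched genes had a probe well above background on each of the 8 arrays, so all 9 entered the test over 25404 features. The genes were named with earlier results of these data known.

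The 4 Irf2_AhcKO samples carried floxed Irf2 alleles (Irf2fl/fl), the AhCre transgene and the Lgr5-EGFP-Ires-CreERT2 knock-in, and the 4 control samples carried the floxed alleles and the same knock-in. AhCre is a recombinase under a promoter that xenobiotics switch on. Both groups had received β-naphthoflavone, the inducing xenobiotic, on 5 consecutive days, and cells with high Lgr5 reporter signal were taken 1 month later. Controls thus shared the reporter with its own tamoxifen-dependent recombinase and the xenobiotic. The labels give no age, and control replicates 3 and 4 have scanner data whose names mention AhCre too, so whether those controls carried it is not settled. How many separate mice stand behind the 4 samples of a group is described in more than 1 way by the series design, so p-values here measure the spread between these samples.

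Intestinal epithelium answers microbes and the cytokines they evoke, among them IL-22, by secreting C-type lectins of the Reg family, by making nitric oxide and hydrogen peroxide, by withholding iron and by carrying IgA into the lumen. Reg3b and Reg3g are secreted lectins that bind bacterial cell walls, Reg3b being best known for Gram-negative and Reg3g for Gram-positive targets. They are made mainly by enterocytes and Paneth cells, and in the sorted stem cells their signal is an average over all cells of the gate. In such samples fewer cells with a transcript and less transcript per cell cannot be told apart.

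Reg1, Reg3a, Reg3b and Reg3g lie together on chromosome 6 within 97990 bases, with Reg3b at 1 end and Reg3g at the other. Their promoters are shown because Reg3b and Reg3g ran closely together from array to array (r = 0.992 with slide means removed). Reg1 and Reg3a had r between -0.24 and 0.03 with them, and between 0.46 and 0.61 once the group means were removed as well. The lines below give the 250 bases before each gene's start from RefSeq (GRCm38.p6), 5′ to 3′ on the gene's strand. Capitals mark matches to a STAT site (TTCNNNGAA) or a C/EBP site (TTNNGNAA), searched on both strands. An interferon-stimulated element (GAAA, any 2 bases, GAAA) and an NF-kB site (GGG, any 2 bases, TTTCC) were searched as well and had no match in these 4 windows.
Reg3b, chr6:78370635-78370884, plus strand: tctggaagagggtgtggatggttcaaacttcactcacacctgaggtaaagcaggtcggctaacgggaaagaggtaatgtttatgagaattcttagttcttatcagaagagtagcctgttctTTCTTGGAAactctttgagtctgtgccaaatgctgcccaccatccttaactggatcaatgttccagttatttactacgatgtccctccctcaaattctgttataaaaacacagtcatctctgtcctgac
Reg3g, chr6:78468875-78469124, minus strand: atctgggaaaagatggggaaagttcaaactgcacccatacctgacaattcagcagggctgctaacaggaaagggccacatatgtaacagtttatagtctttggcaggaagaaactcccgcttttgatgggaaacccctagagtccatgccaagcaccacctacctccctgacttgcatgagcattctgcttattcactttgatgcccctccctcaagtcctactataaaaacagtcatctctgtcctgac
Reg1, chr6:78425733-78425982, plus strand: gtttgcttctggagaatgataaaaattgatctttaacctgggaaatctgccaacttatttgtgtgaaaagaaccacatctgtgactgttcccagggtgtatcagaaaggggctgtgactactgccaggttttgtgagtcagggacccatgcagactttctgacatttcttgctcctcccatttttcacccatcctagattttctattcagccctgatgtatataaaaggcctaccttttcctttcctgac
Reg3a, chr6:78380459-78380708, plus strand: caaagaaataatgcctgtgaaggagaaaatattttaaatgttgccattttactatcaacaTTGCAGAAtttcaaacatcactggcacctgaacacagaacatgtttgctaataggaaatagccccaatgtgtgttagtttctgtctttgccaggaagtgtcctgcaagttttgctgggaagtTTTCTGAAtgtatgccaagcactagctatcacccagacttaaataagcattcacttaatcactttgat

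In a global alignment, 68.4% of the alignment columns of the Reg3b and Reg3g promoters were identical (173 of 253). The other 35 pairs of the 9 members' windows, Duox2 included and Nos2 without an entry, had 40.7% to 49.6%. Counted over aligned bases alone, without gaps, the pair had 70.0% and did not stand apart, since Reg3a and Reg3g had 71.9% and Lcn2 and Saa1 71.1%. The STAT match of Reg3b, TTCTTGGAA, lay 129 to 121 bases before its start. The STAT pattern reads the same on both strands, so every match to it is found on both. Among 32851 RefSeq promoter windows of the same length, 7.02% held a STAT match, 36.8% a C/EBP match, 2.98% an interferon-stimulated element and 1.41% an NF-kB match. The C/EBP letters were also found before Lcn2. The windows of Duox2 and Saa1 overlap the spans of those genes in the gene table, so their matches are not given as lying before the gene. These are matches of letters only, and no binding was measured.

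Signals below are log2 of the background-subtracted intensity that the scanner software gives, minus the array's 75th percentile, and differences are Irf2_AhcKO minus control from limma with the slide as a term. The arrays lay on 2 slides scanned apart, with replicates 1 and 2 of both groups on slide 1 and replicates 3 and 4 on slide 2. The slide mattered, since 9016 features (35.5%) differed between slides at an adjusted p below 0.05. The share of spots well above background was 61.4% to 69.8% per array and saturation was found on none. The number of arrays, 4 a group, limits the precision of every difference. The targeted gene, Irf2, gave no lower signal on arrays labelled Irf2_AhcKO, with 0.91 ± 0.23 in Irf2_AhcKO and 0.64 ± 0.26 in control (SD, n = 4 each). Its difference was 0.27 (SE 0.12, limma adjusted p = 0.429), and no source used here places its probe relative to the deleted part, so every direction below is between arrays as labelled.

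None of the 9 antimicrobial genes passed an adjusted p of 0.05, where 0.0984% of all features passed (0.0551% higher and 0.0433% lower in Irf2_AhcKO). At an unadjusted limma p below 0.05 there was 1, Reg1, of 9, against 11.7% of all features (5.98% higher and 5.75% lower). In none of the 9 were the groups free of overlap, which held for 3.85% of all features (1.74% with Irf2_AhcKO higher). Of the 9, 2 (Lcn2 and Pigr) had opposite signs on the slides, against 37.8% of all features. A positive difference was found for 4 and a negative one for 5 of the 9, where 49.5% of all features were positive, with a median of -0.00062 against a median of -0.0024 over all features. That median hides a wide range, because 3 of the 9 differed by more than 1 on the log2 scale (Reg3b, Reg3g and Reg1), as did 1.22% of all features.

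**Figure D1:**
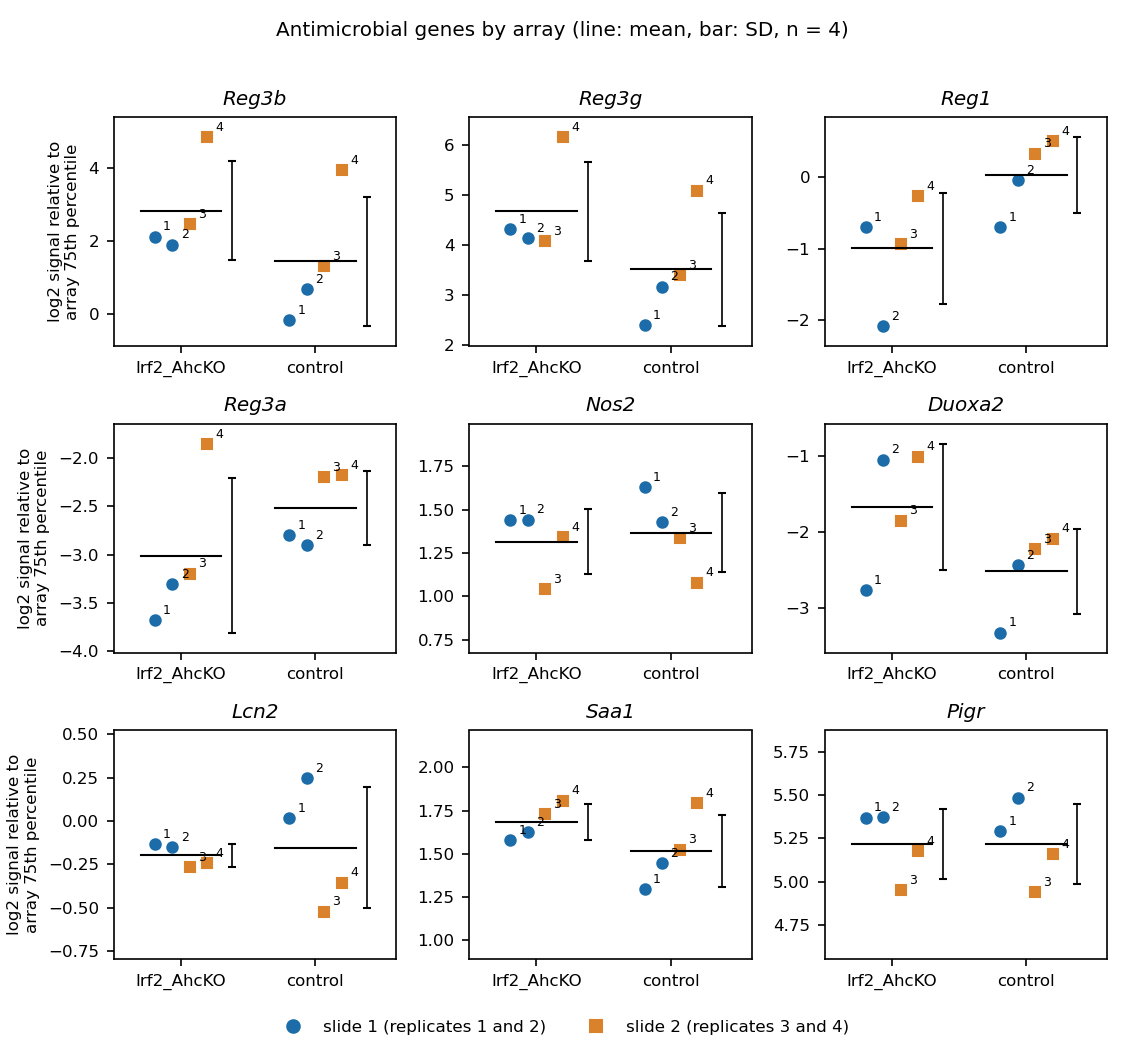
Log2 signal, with 0 at the 75th percentile of its array, for the 9 measured genes on each array, with Irf2_AhcKO left of control in each panel, points numbered by replicate and coloured by slide, lines for the mean and bars for the SD (n = 4). Each panel has its own vertical range; Reg3b and Reg3g are highest on replicate 4 of both groups, while Nos2, Saa1 and Pigr span less than 0.6 over all 8 arrays.

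Reg3b stood at 2.12, 1.90, 2.46 and 4.83 on Irf2_AhcKO replicates 1 to 4, against -0.16, 0.67, 1.31 and 3.94 on control replicates 1 to 4. Its signal was higher in Irf2_AhcKO in each of the 4 same-numbered pairs, but control replicate 4 exceeded 3 of the Irf2_AhcKO arrays, so the groups overlapped. The mean was 2.83 ± 1.35 in Irf2_AhcKO and 1.44 ± 1.77 in control (SD, n = 4 each). The difference of 1.39 (SE 0.70, 95% interval -0.26 to 3.03, limma adjusted p = 0.471), a 2.61-fold higher signal, was within the spread between arrays. It was 1.75 on slide 1 and 1.02 on slide 2.

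Reg3g followed the same course, with 4.32, 4.15, 4.09 and 6.16 on Irf2_AhcKO replicates 1 to 4, against 2.40, 3.18, 3.40 and 5.09 on control replicates 1 to 4. Each Irf2_AhcKO array again lay above the control array of its number, and control replicate 4 again lay above Irf2_AhcKO replicates 1 to 3. The means were 4.68 ± 0.99 in Irf2_AhcKO and 3.52 ± 1.14 in control (SD, n = 4 each), a difference of 1.16 (SE 0.54, 95% interval -0.10 to 2.43, limma adjusted p = 0.45). It was 1.45 on slide 1 and 0.88 on slide 2. Without control replicate 4 the differences of Reg3b and Reg3g were 1.98 and 1.56, and without Irf2_AhcKO replicate 4 they were 0.99 and 0.81, with none of the 4 values past the threshold. Without control replicate 3 the difference of Reg3b was 0.93.

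Reg1, a secreted Reg protein also made by the pancreas, went the other way. It had -0.70, -2.09, -0.93 and -0.26 on Irf2_AhcKO replicates 1 to 4, against -0.69, -0.04, 0.33 and 0.51 on control replicates 1 to 4. The arrays of replicate 1 had nearly equal values, the Irf2_AhcKO array was lower in the other 3 pairs, and control replicate 1 lay below Irf2_AhcKO replicate 4. The means were -0.997 ± 0.78 in Irf2_AhcKO and 0.03 ± 0.53 in control (SD, n = 4 each), a difference of -1.02 (SE 0.32, 95% interval -1.78 to -0.27). Its unadjusted limma p was 0.015 and its adjusted p = 0.332. The slides gave nearly the same value, -1.03 (slide 1) and -1.02 (slide 2). Without Irf2_AhcKO replicate 2, its lowest array, the difference was -0.75.

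Reg3a, a further secreted lectin of the cluster, was dim, at -3.68, -3.31, -3.20 and -1.86 on Irf2_AhcKO replicates 1 to 4, against -2.80, -2.90, -2.20 and -2.18 on control replicates 1 to 4. In 3 of the 4 pairs the Irf2_AhcKO array was lower, and the highest of all 8 values was on Irf2_AhcKO replicate 4. The difference was -0.49 (SE 0.28, 95% interval -1.14 to 0.16, limma adjusted p = 0.501), and the slides taken singly gave -0.65 (slide 1) and -0.34 (slide 2). With normexp background correction, whose offset draws dim signals together, it was -0.11. Without Irf2_AhcKO replicate 4 it was -0.79 and without Irf2_AhcKO replicate 3 it was -0.26.

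The Reg genes outside the named members had no common direction either. Reg4, a Reg protein of secretory cells, had a difference of -0.56 and Reg3d one of 0.24 (limma adjusted p = 0.46 and 0.782). Reg2 was not well above background on any array. The probes' own sequences were not used here, so how far a probe of 1 Reg gene also reads another is not known.

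**Figure D2:**
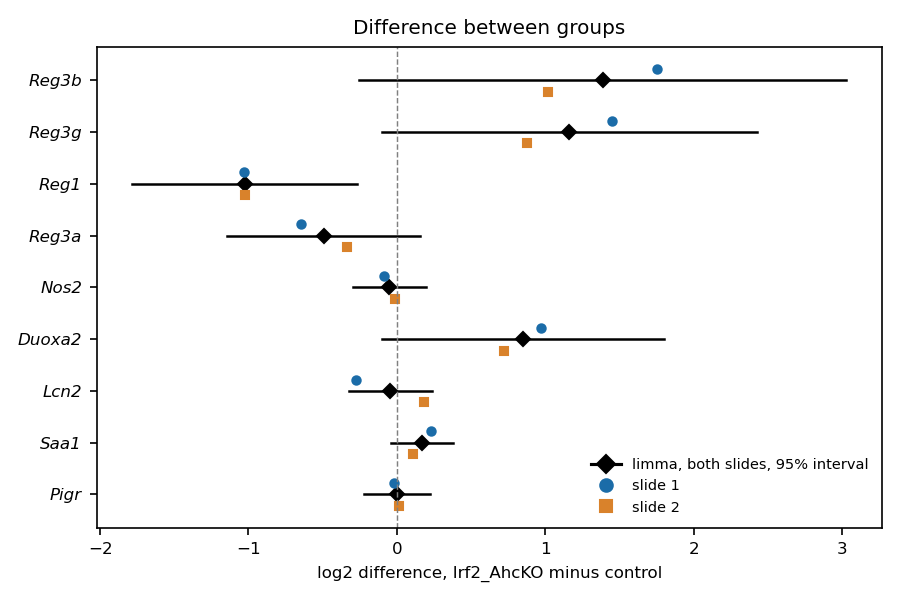
Log2 difference, Irf2_AhcKO minus control, of the 9 measured genes on the horizontal axis, with the limma estimate and its 95% interval (diamond and line) and the difference within slide 1 (circle) and slide 2 (square). Reg3b, Reg3g and Duoxa2 lie right of 0 and Reg1 and Reg3a left of it on both slides, and the interval of Reg1 alone does not reach 0.

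Duoxa2, the partner that brings the hydrogen peroxide-producing oxidase Duox2 to the cell surface, had -2.77, -1.05, -1.86 and -1.01 on Irf2_AhcKO replicates 1 to 4, against -3.33, -2.44, -2.23 and -2.09 on control replicates 1 to 4. Each Irf2_AhcKO array lay above the control array of its number, and 3 of the 4 lay above every control array. The difference was 0.85 (SE 0.40, 95% interval -0.10 to 1.80, limma adjusted p = 0.459). Within slide 1 it was 0.97 and within slide 2 it was 0.72. It was 0.46 with normexp, and 0.48 without Irf2_AhcKO replicate 2. The other Duoxa2 probe was well above background on 1 of 4 Irf2_AhcKO and 1 of 4 control arrays and was not tested.

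Nos2, the inducible synthase that makes nitric oxide from arginine, showed little movement, with 1.44, 1.44, 1.04 and 1.34 on Irf2_AhcKO replicates 1 to 4, against 1.63, 1.43, 1.33 and 1.08 on control replicates 1 to 4. The groups covered the same range. The difference of -0.05 had a 95% interval from -0.30 to 0.20 (limma adjusted p = 0.858).

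Lcn2, the lipocalin that binds bacterial iron carriers, had -0.13, -0.15, -0.27 and -0.24 on Irf2_AhcKO replicates 1 to 4, against 0.02, 0.25, -0.52 and -0.36 on control replicates 1 to 4. Irf2_AhcKO was lower on slide 1 (-0.27) and higher on slide 2 (0.19), and the difference over both slides was -0.04 (SE 0.12, 95% interval -0.33 to 0.24, limma adjusted p = 0.896). A test of whether the difference was unequal between slides (group by slide interaction) gave an unadjusted limma p of 0.043 and an adjusted p = 0.999. At an unadjusted p below 0.05, 4.29% of all features had such an interaction, and Lcn2 was the only one of the 9 members that did.

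Saa1, an acute phase protein that carries lipid and retinol, had 1.58, 1.63, 1.73 and 1.81 on Irf2_AhcKO replicates 1 to 4, against 1.30, 1.45, 1.52 and 1.79 on control replicates 1 to 4. Each pair had the Irf2_AhcKO array higher, by 0.02 to 0.28. The difference was 0.17 (SE 0.09, 95% interval -0.04 to 0.38, limma adjusted p = 0.484). Saa2, a near-copy of Saa1 that its probe may also read, was well above background on its own probe on 1 of 4 Irf2_AhcKO and 1 of 4 control arrays, and Saa3 on none.

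Pigr, the receptor that carries IgA through the epithelial cell, had 5.37, 5.37, 4.95 and 5.18 on Irf2_AhcKO replicates 1 to 4, against 5.29, 5.49, 4.94 and 5.16 on control replicates 1 to 4. The groups had the same mean within 0.01, and the 95% interval of the difference ran from -0.22 to 0.22 (limma adjusted p = 0.998). The probes of Pigr disagreed about the slide. The tested probe was lower by 0.32 on slide 2 than on slide 1, and the other, also well above background on all 8 arrays, was lower by 1.93. Between groups that other probe differed by 0.09.

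The 9 genes fell apart by how much they varied among arrays of 1 group on 1 slide. Expressed as the SD within group and slide, Reg3b (1.29), Reg3g (0.99), Duoxa2 (0.75), Reg1 (0.60) and Reg3a (0.49) lay at percentiles 99.7, 98.7, 96.8, 94.0 and 90.4 of all features, whose median was 0.18. Nos2 (0.16), Pigr (0.13), Saa1 (0.11) and Lcn2 (0.10) lay at percentiles 41.0, 31.7, 24.3 and 20.1. The lectins and Duoxa2 were thus the members whose arrays differed most, and their intervals are the widest.

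Much of the spread of Reg3b and Reg3g lay between replicate 4 and replicate 3, and it recurred in both groups. Reg3b was higher on replicate 4 by 2.37 in Irf2_AhcKO and by 2.62 in control, and Reg3g by 2.07 in Irf2_AhcKO and by 1.69 in control. Of all features, 22 (0.0866%) exceeded replicate 3 by more than 1.5 on replicate 4 in both groups, and 2 of the 9 antimicrobial genes, Reg3b and Reg3g, were among them. None of the 9 was below by as much in both groups (0.0905% of all features), and none differed so between replicates 2 and 1 (0.0433% of all features above and 0.0551% below). The comparison and the limit of 1.5 were chosen after these values were seen. Reg3a was higher on replicate 4 by 1.34 in Irf2_AhcKO and by 0.02 in control, and the other 6 members by less than 0.9 in either group. Replicate 4 of each group was also the array with signal for Xist, the RNA of the inactive X chromosome of females, at 5.89 in Irf2_AhcKO and 5.83 in control, against at most -3.62 on the other Irf2_AhcKO and -3.55 on the other control arrays. With 1 such array in each group, sex and any other property of these samples cannot be told apart.

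**Figure D3:**
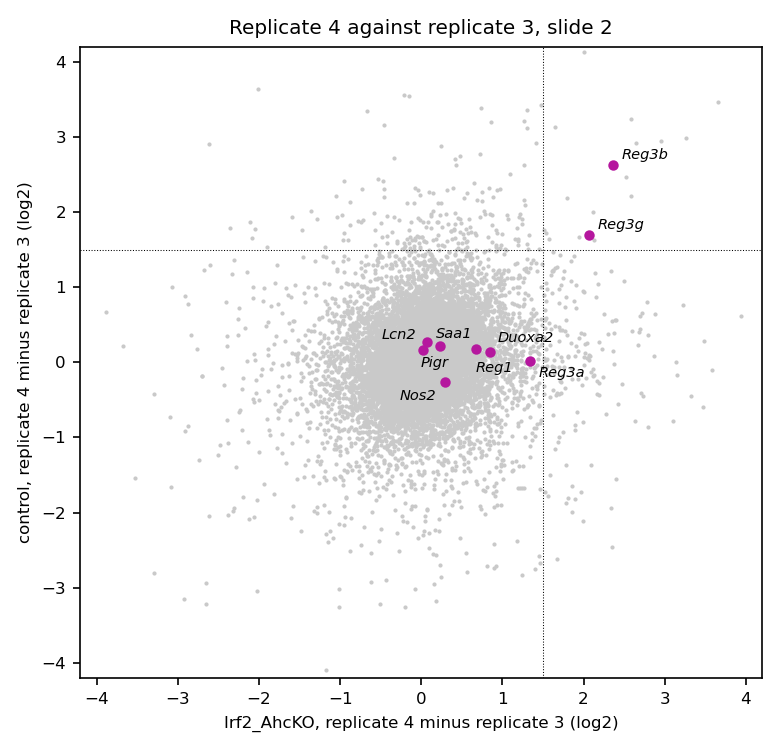
Log2 signal on replicate 4 minus replicate 3 in Irf2_AhcKO (horizontal) and in control (vertical) for all features (grey) and the 9 antimicrobial genes (coloured); dotted lines stand at 1.5, and 18 features lie beyond the axes. Reg3b and Reg3g lie above 1.5 in both groups and the other members do not.

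Reg3b and Reg3g varied as a pair over the arrays. With the slide means removed, their Pearson r over the 8 arrays was 0.992 and Spearman's rho 0.976 (exact permutation within slides, two-sided, p = 0.00174 and 0.00347). That p of r is the smallest the 576 permutations can give. Over the 36 pairs of members the adjusted p was 0.0625 for r and 0.125 for rho, so the pair did not pass the correction. Without control replicate 3 and Irf2_AhcKO replicate 4, the arrays farthest from the median of Reg3b, r was 0.991, and with the group means removed as well it was 0.988. Saa1 ran with both, at r = 0.909 with Reg3b and 0.892 with Reg3g (exact permutation adjusted p = 0.0625 and 0.0833, rho 0.833 and 0.905), although its whole range over the arrays was 0.51. Without the 2 farthest arrays those values were 0.904 and 0.909. On all arrays, with the group means removed as well, they were 0.858 and 0.812. No other pair had an unadjusted p below 0.05, and none of the 36 passed after adjustment. Pigr had r = 0.723 with Reg3b and 0.709 with Reg3g, and 0.905 and 0.919 with the group means removed as well. Each slide holds 4 arrays, too few for a correlation within it.

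**Figure D4:**
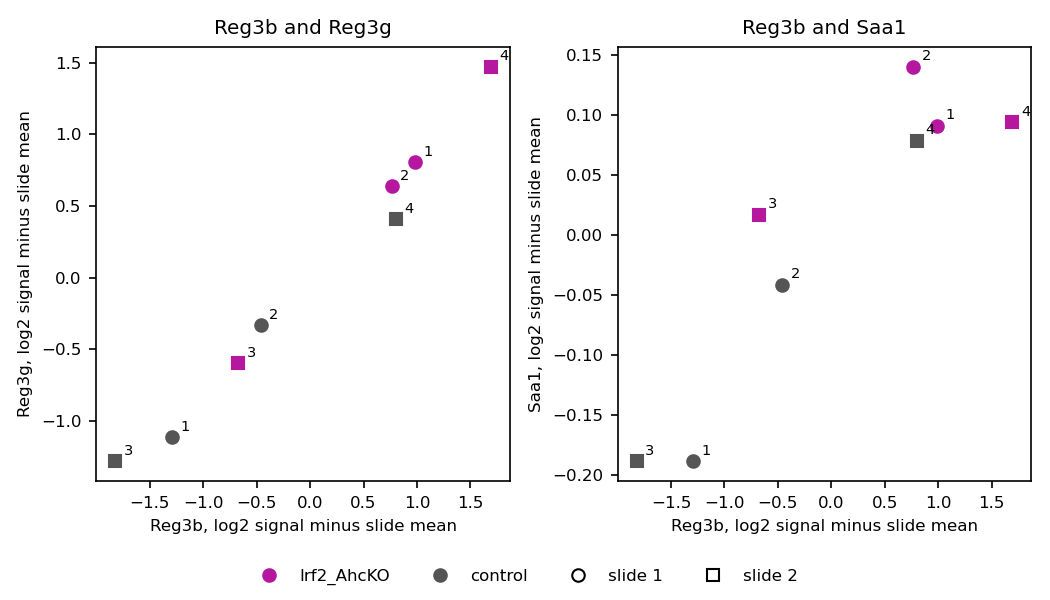
Log2 signal minus the slide mean of Reg3b (horizontal) against Reg3g and against Saa1 (vertical) on the 8 arrays, coloured by group, shaped by slide and numbered by replicate. The points of Reg3b and Reg3g lie along a line (r = 0.992), and those of Reg3b and Saa1 follow more loosely over a far narrower range of Saa1 (r = 0.909).

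Among 15113 other named genes, those whose pattern over the 8 arrays was most like each member were listed by Pearson r with the slide means removed, as a description. For Reg3b they were H19 (0.993), Reg3g (0.992) and Cep97 (0.984), and for Reg3g they were Reg3b, H19 (0.990) and Rfc1 (0.974). H19, a non-coding RNA of an imprinted locus, was higher on replicate 4 than on replicate 3 by 0.76 in Irf2_AhcKO and 0.73 in control. Duoxa2 was most like Tap1, the peptide transporter of MHC class I (0.986), and Eid3 (0.977). Reg1 was most like Hsdl2 (0.974), Cog2 (0.974) and Smug1 (0.966), and Reg3a was most like Esrra (0.977), Serpina3b (0.973) and Sdhd (0.968). Nos2 was most like Mpg (0.975), Kcng2 (0.975) and Mtpn (0.970), and Lcn2 was most like Ripply1 (0.972), Pot1b (0.967) and Apeh (0.966). Saa1 was most like P2rx3 (0.996), Guca1b (0.995) and Psg28 (0.994), and Pigr was most like 2900005J15Rik (0.978), Rbbp7 (0.976) and Pyroxd1 (0.973). Values of this size came up for each of the 9 members over 8 arrays and so many genes, so they single out no member.

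The surrounding pathway was read from 11 lists of 3 to 25 genes, none of which had a member past the adjusted threshold. In 10 of the 11 the median difference lay between -0.16 and 0.11, with members on both sides of 0 and some of them far from it. The counts at an unadjusted p below 0.05 that follow stand against 5.98% of all features higher and 5.75% lower. Of 13 measured NADPH oxidases and partners, 8 had a positive and 5 a negative difference, and 2, Nox1 and Ncf1, were higher at an unadjusted limma p below 0.05, against 5.98% of all features. Nox1, the epithelial superoxide-producing oxidase, had -1.28, -0.44, -1.94 and -0.94 on Irf2_AhcKO replicates 1 to 4, against -3.42, -1.83, -2.12 and -3.19 on control replicates 1 to 4. Each pair had the Irf2_AhcKO array higher, the groups overlapped slightly, and the difference was 1.49 (SE 0.45, limma adjusted p = 0.328). Cyba, the membrane partner of several Nox enzymes, and Ncf1 had differences of 0.39 and 0.21. Duox1 and its partner Duoxa1, the neighbouring homologues of Duox2 and Duoxa2, had differences of -0.03 and 0.10. Among 9 genes of hydrogen peroxide removal none had an unadjusted p below 0.05, with Prdx6 at 0.16, Gpx1 at -0.12 and Prdx4 at -0.13.

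Of 13 genes around arginine and nitric oxide, 1 was higher and 2 were lower at an unadjusted limma p below 0.05 (5.98% and 5.75% of all features). Arg2, the mitochondrial arginase that competes for the substrate of Nos2, had -2.70, -4.75, -2.84 and -3.44 on Irf2_AhcKO replicates 1 to 4, against -0.96, -1.35, -1.94 and -1.56 on control replicates 1 to 4. The groups did not overlap, as in 3 of the 13 genes, Nos3 among them, and in 3.85% of all features. On 3 of 4 Irf2_AhcKO arrays Arg2 was well above background, and the difference was -1.98 (SE 0.47, limma adjusted p = 0.238). With normexp it was -0.79 and passed, at an adjusted p = 0.0498. Nos3, the endothelial synthase, and Qdpr, which recycles the cofactor of the synthases, had differences of 0.40 and -0.26 (limma adjusted p = 0.375 and 0.413). Ass1, which with Asl rebuilds arginine, was at -0.02 and Gch1, which starts synthesis of the cofactor, at 0.26.

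Of 14 further metal-withholding and acute phase genes, 5 were measured, and the lactoferrin gene Ltf, the hepcidin gene Hamp, S100a8 and S100a9 were not well above background on any array. Trf, transferrin, had a difference of -0.64 and Fth1, ferritin heavy chain, one of -0.21 (limma adjusted p = 0.367 and 0.401). Both were lower in Irf2_AhcKO in all 4 pairs, and so were Gpx1, Qdpr and Ccl25, which were likewise named for a low p. Lcn12 was at 0.14. Beside Pigr, Ccl28, which draws IgA-secreting cells, had a difference of 0.35, Ccl25 one of -0.15 and Tnfsf13b one of -0.11 (limma adjusted p = 0.312, 0.444 and 0.7). The IgA joining chain gene Jchain was not well above background on any array.

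Of 16 other inducible defence genes measured, 10 had a positive and 6 a negative difference. Dmbt1, a secreted scavenger receptor that binds bacteria, had 4.62, 3.93, 4.11 and 4.91 on Irf2_AhcKO replicates 1 to 4, against 5.48, 5.01, 4.82 and 5.70 on control replicates 1 to 4. It was lower in Irf2_AhcKO in all 4 pairs, with a difference of -0.86 (SE 0.28, limma adjusted p = 0.349). Cxcl1, a neutrophil attractant, had a difference of 1.71 (SE 0.61) and Il18, a cytokine of the inflammasome, one of -0.76 (SE 0.29), both with groups that overlapped (limma adjusted p = 0.374 and 0.388). With normexp Cxcl1 and Il18 were at 0.77 and -0.13.

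Of 13 genes of IL-22 and IL-17 signalling, 1 was higher and 1 lower at an unadjusted limma p below 0.05. Stat3, the transcription factor downstream of IL-22, had 3.24, 3.42, 3.27 and 3.21 on Irf2_AhcKO replicates 1 to 4, against 2.68, 2.76, 2.79 and 2.94 on control replicates 1 to 4. The groups did not overlap, as in 3.85% of all features and in no other gene of the 13. The difference was 0.49 (SE 0.09, limma adjusted p = 0.146, and 0.0502 with normexp). The receptor gene Il17rc had a difference of -0.33 and Il6st one of -0.31, while Il22ra1 was at 0.22 and Socs3, a feedback inhibitor of STAT3, at 0.34. Of 15 microbial sensors, 3 were higher and 2 lower at an unadjusted limma p below 0.05, where 11.7% of all features were either. Tlr1 had a difference of 0.84, Nod1, a sensor of peptidoglycan, one of 0.32 and Naip1 one of -0.36 (limma adjusted p = 0.226, 0.256 and 0.33). Among the 15, only Nod1 had groups that did not overlap. Of 15 NF-kB and C/EBP factors, 4 were higher and 1 lower by the same measure. Cebpd had a difference of 0.62, Cebpa one of -0.42 and Nfkbiz, a cofactor of NF-kB, one of 0.34 (limma adjusted p = 0.292, 0.33 and 0.359).

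The interferon gamma-inducible genes were the list that stood away from 0, with a median difference of 1.27 over 12 measured genes against -0.0024 over all features. Of the 12, 9 had an unadjusted limma p below 0.05 and were higher in Irf2_AhcKO, against 5.98% of all features. Cd274, which encodes PD-L1, was well above background on all 4 Irf2_AhcKO arrays and on no control array. Set against a floor for the control arrays, its signal in Irf2_AhcKO was 3.86-fold higher. The floor was the dimmest detected probe of each control array, or Cd274 itself where it was brighter. It is not the detection limit of the Cd274 probe, so that fold is no strict lower bound. The adjusted p of Cd274 in limma was 0.0768. With normexp its difference was 0.60 on the log2 scale, smaller than the floor gives, with an adjusted limma p of 0.0447. Psmb8, an immunoproteasome subunit, had a difference of 1.76, and Irgm1, a GTPase of defence within cells, one of 0.83 (limma adjusted p = 0.162 and 0.12). These genes were listed with their earlier results known, so the list supports no direction by itself.

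**Figure D5:**
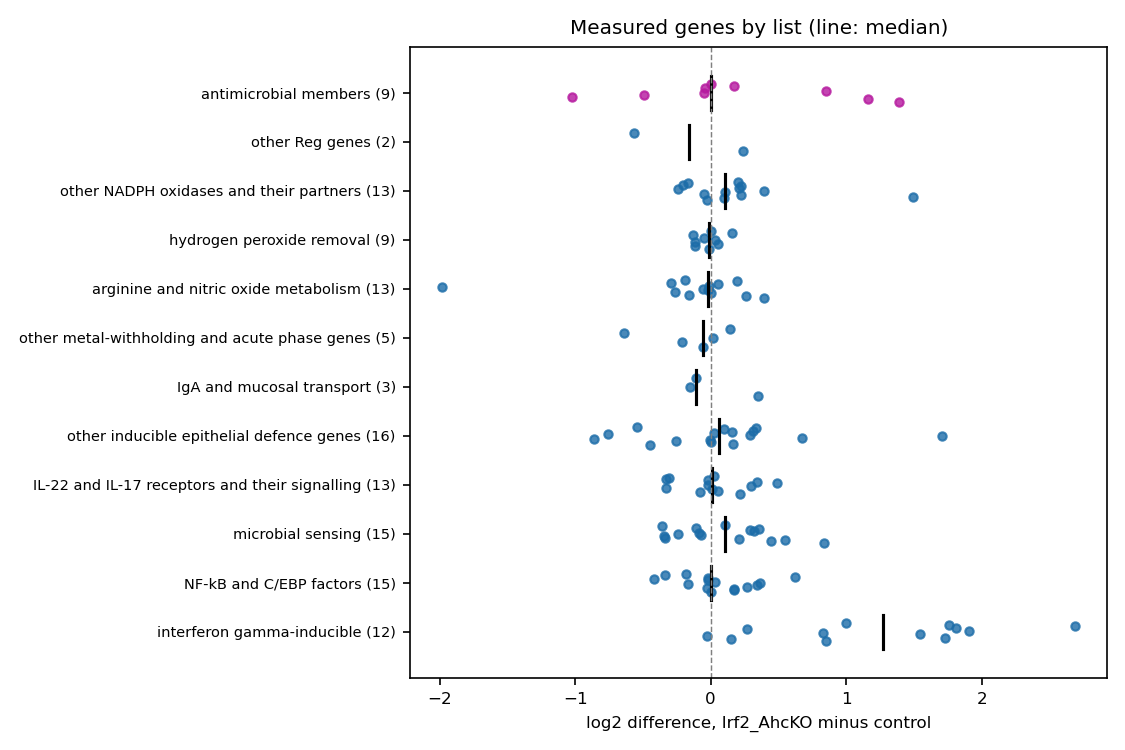
Log2 difference, Irf2_AhcKO minus control, on the horizontal axis for every measured gene of each list (points, number in brackets), with the list's median as a line. The antimicrobial genes spread to both sides of 0 and the interferon gamma-inducible genes, whose median is 1.27, lie mostly to the right.

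Marker genes of the sorted cells and of their neighbours were set beside these values. All 4 measured stem cell markers were well above background on all arrays, with a mean log2 signal per array of 2.46 to 2.90 in Irf2_AhcKO and 2.81 to 3.04 in control, Olfm4 having no matched probe. All 4 stem cell, 5 goblet cell and 4 general epithelial markers measured had a negative difference. Of these, 0, 1 and 1 were lower at an unadjusted limma p below 0.05, against 5.75% of all features. The 6 enterocyte markers had means of 0.38 to 0.79 in Irf2_AhcKO and 1.08 to 2.84 in control, so those ranges did not overlap. The highest mean was that of control replicate 4, on which Sis alone stood at 10.42. Of the 6, 4 were lower at an unadjusted limma p below 0.05 (5.75% of all features). In 3 of the 6 the groups did not overlap (3.85% of all features). On replicate 4, where Reg3b and Reg3g were highest, the enterocyte mean was 0.38 in Irf2_AhcKO and 2.84 in control, the lowest and the highest of the 8 arrays. The 4 Paneth cell markers measured had means of 3.03 to 4.22 in Irf2_AhcKO and 3.11 to 3.80 in control, and on replicate 4 they had 3.79 in Irf2_AhcKO and 3.54 in control, below replicate 3 in both groups. The 5 goblet cell markers had means of 3.27 to 4.08 in Irf2_AhcKO and 3.35 to 3.95 in control. Tuft cell markers (4 of 4 measured) had -0.21 to 1.02 in Irf2_AhcKO and -0.64 to -0.14 in control, and enteroendocrine markers (4 of 4) -0.24 to 0.35 in Irf2_AhcKO and -0.96 to -0.07 in control. All 4 of each kind had a positive difference. Of these, 3 tuft and 2 enteroendocrine markers were higher at an unadjusted limma p below 0.05, against 5.98% of all features. In 1 of each kind the groups did not overlap. Of the defining leukocyte markers, Cd3g, Ms4a1, Jchain, S100a8, S100a9 and Mpo were not well above background on any array, while Cd3e, Ptprc and Cd79a were on all 8. The 3 T cell markers measured had means of -0.89 to -0.20 in Irf2_AhcKO and -0.92 to -0.46 in control. All 3 had a positive difference, with 0 at an unadjusted limma p below 0.05. The 3 B and plasma cell markers measured had -3.78 to -3.25 in Irf2_AhcKO and -4.21 to -3.52 in control. Of these, 1 was higher by that measure, without overlap of its groups. All 5 macrophage and dendritic markers were measured, 4 of them well above background on all arrays. Their means were 0.973 to 1.234 in Irf2_AhcKO and 0.803 to 1.255 in control. The 1 neutrophil marker measured was bright, at 7.512 to 7.586 in Irf2_AhcKO and 7.361 to 7.504 in control. Its groups narrowly missed overlapping, and 3.85% of all features had groups without overlap. Its difference was 0.11, with an unadjusted limma p not below 0.05. The part of the other cells in the antimicrobial signals was not tested.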

How the data were processed

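Total RNA of each sample was extracted, amplified and labelled with Cy3, per the labels' protocols, and hybridised to 1 Agilent 1-colour array. The deposited scanner intensity was background-subtracted and detrended with Agilent Feature Extraction 11.5.1.1, as the file headers state. The authors' deposited table holds the same intensity times 1 constant per array (6.41 to 6.90), linear and not centred; its column medians are 207 to 246, and no source used here says how that constant arose.

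For each spot the log2 intensity was taken and centred on the 75th percentile of the 59305 non-control spots of its array. Outlier spots were dropped and the remaining spots averaged by probe. Of 55681 probes, 28331 had a symbol of GRCm38.p6 through their accession, and none had several; unnamed features kept their own identifier. Probes well above background on at least 4 arrays were kept, and a gene was represented by its brightest kept probe. The group comparison used limma 3.58.1 under R 4.3.3 (two-sided, slide as a term, Benjamini-Hochberg over 25404 features). The fit was also run on simulated data with independent noise, which held no likeness between arrays of the same number beyond the slide. Slide and scan coincided.

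Deviations from the group mean correlated between arrays of the same number (r across genes 0.46 to 0.53). Taking out the slide means left 0.05 on slide 1 and 0.21 on slide 2, so most of that likeness went with the slide. By the rule used the numbers were read as pairs, but the main fit had the slide and no pair as a term. Same-numbered pairs are thus given as a description, and the share of all features with every pair in the same direction was not counted. Genes named for a low p are likely to have all pairs in the same direction, so such pairs add no support for them. The members and lists were chosen with earlier results of these data known. Named are all members, the 3 genes of lowest unadjusted p of each list and the 3 genes most like each member (1 of them is not reported here); Duox1, Duoxa1, Ass1, Gch1, Il22ra1, Socs3, Xist, Sis, and genes named as not above background were chosen after their values were seen. Normexp used the spot's median signal, since the files used here have no mean signal column.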

Additional observations from a re-analysis of the deposited data

Results flagged for a closer look

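Reg3g on Irf2_AhcKO replicate 4 (6.16) lay far above the other 3 Irf2_AhcKO arrays, which had 4.09 to 4.32. Ccl25 on control replicate 2 (6.74) lay below the other control arrays (6.83 to 6.84), Il6st on control replicate 3 (2.09) above them (1.64 to 1.69), and Prdx6 on Irf2_AhcKO replicate 2 (4.19) below the other Irf2_AhcKO arrays (4.40 to 4.42). By Dixon's criterion 4 of 88 sets of 4 arrays were marked in this way, where chance marks about 1 in 20.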

How the results depend on the processing

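Under the 19 alternatives, which were written down with earlier results known, no antimicrobial gene passed the threshold in any, and Reg1, Reg3a, Reg3b, Reg3g, Duoxa2 and Saa1 kept their direction in all. Near-zero values changed sign. Pigr was at 0.0055 with normexp, 0.053 with quantile normalization, 0.024 with the percentile over probes detected on all arrays, 0.044 with the mean of its probes and 0.015 on slide 2 alone, and between -0.049 and 0.042 when 1 array was left out (0.0031 and 0.0021 without Irf2_AhcKO replicates 1 and 2, 0.042 without Irf2_AhcKO replicate 3 and control replicate 2, 0.040 without control replicate 4). Lcn2 was at 0.19 on slide 2 alone and between -0.124 and 0.048 when 1 array was left out (0.048 without control replicate 2, 0.0056 without Irf2_AhcKO replicate 2), Nos2 between -0.118 and 0.0014 (without Irf2_AhcKO replicate 3), and Reg3d at -0.23 on slide 2 alone. The members' median lay between -0.049 and 0.048 when 1 array was left out. The count of features called was less stable: 25 in all, 128 with normexp, 7 with no filter on dim probes (36717 features), 46 with probes well above background on all 8 arrays, and between 0 and 25 when 1 array was left out. With the replicate block 0 features passed (3293 at an unadjusted limma p below 0.05), as on slide 1 (2539) and slide 2 (1337) alone, and the block changed no member's call. The cause of these changes was not tested. With normexp Irgm1, Psmb8, Cd274 and Arg2 passed (0.67, 1.65, 0.60 and -0.79), and Cd274 also without control replicate 4 (3.03). The differences of Reg3a, Duoxa2, Nox1, Arg2, Cxcl1, Il18 and Cd274 were smaller with normexp, and so were those of Irgm1 and Psmb8. Whether signal over background limits them was not tested.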
